A study of Homo sapiens with 16 samples.

Results

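The genes of the hyaluronan matrix were followed through the culture of hPSC-CMs, cardiomyocytes made from human pluripotent stem cells. The set was fixed by name and holds 10 of the 43388 genes in the deposited table: the hyaluronan synthases HAS1, HAS2 and HAS3, the link proteins HAPLN1 and HAPLN3, the proteoglycan versican (VCAN), the receptors CD44 and HMMR, and the turnover genes CEMIP2 and HYAL2. All 10 were found by symbol. The cells came from WTC11, a wild-type line of human induced pluripotent cells, and each of 4 groups held 4 libraries from separate wells of a single differentiation. Day 16 RPMI/B27 was the starting point. From there cells were kept until Day 30 either in RPMI/B27, or in the same medium with 5 mM glucose (RPMI_glcM/B27), or in human plasma-like medium (HPLM/B27), and values for Day 30 are given in this order of media unless a medium is named. Every group therefore shares the line, the differentiation and the B27 supplement. GEO's design text gives 3 wells per medium, whereas the labels give 4, and all 16 libraries were used. SDs and p-values measure only the spread between wells.

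Hyaluronan is a long unsulfated sugar polymer that synthases in the plasma membrane extrude directly into the matrix. Versican binds it through its end domain, a link protein locks that bond, and CD44 ties the polymer to the cell surface, while hyaluronidases cut it into fragments. In the embryonic heart this gel fills the space between myocardium and endocardium as cardiac jelly, and HAS2 makes most of it.

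HAS2, HAPLN1, VCAN and HMMR were lower at Day 30 than at Day 16 in all 3 media, whereas CD44 was the only member whose called difference was higher, and that in RPMI/B27. By fold, HAS2 fell the most of the members tested, from 19.8 ± 4.00 TPM (SD, n = 4) to means between 1.70 and 2.09 TPM. Of the members, HAPLN1 alone passed the test between 2 of the Day 30 media, at 8.68 ± 1.39 TPM where the medium was RPMI/B27 and 4.01 ± 0.668 TPM where it was RPMI_glcM/B27 (SD, n = 4).

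**Figure D1:**
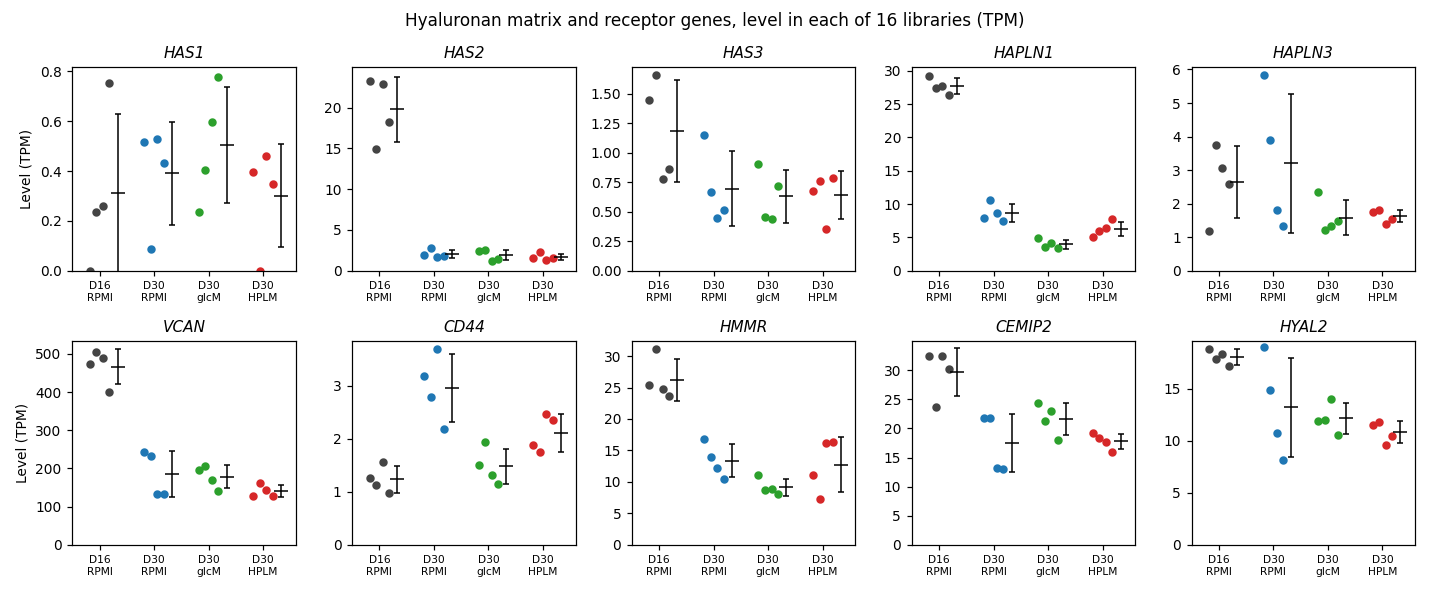
Level of each of the 10 genes in TPM (linear axis) in each of the 16 libraries, by group; points are libraries, and the horizontal mark with its bar is the mean with SD of the 4 libraries of a group. HAS2 sits between 14.9 and 23.2 TPM at Day 16 and at or below 2.83 TPM in all 12 Day 30 libraries, while CD44 is highest in Day 30 RPMI/B27.

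Values are TPM, reads per base of gene scaled to 1000000 in each library, so levels of different genes can be set side by side. Differences are on the log2(TPM + 1) scale, from limma fitted to the 4 groups together, and are called at a Benjamini-Hochberg adjusted p under 0.05 over the 16122 genes whose mean reached 1 TPM. On that scale the median of all genes tested moved by -0.28, -0.22 and -0.29 against Day 16 in the 3 media. In RPMI/B27 against Day 16, 336 genes were called higher and 2867 lower, against 1413 and 1413 after median-of-ratios rescaling, which brings the median gene close to 0. The same counts were 538 and 2862 (rescaled 2254 and 2199) in RPMI_glcM/B27 and 483 and 3605 (rescaled 2154 and 1919) in HPLM/B27. Between HPLM/B27 and RPMI_glcM/B27, 8 genes were called higher and 3 lower (rescaled 160 and 97). The libraries held 7744768 to 16183655 reads on genes, as recovered from the TPM. RNR1, a ribosomal RNA of mitochondria, lay between 49.5 and 29276 TPM, and 2 libraries stood apart above 10000 TPM, Day 30 RPMI/B27 replicates 3 and 4. The 10 cardiomyocyte markers examined summed to between 15185 and 19989 TPM in every library, so the labelled cell type showed its markers throughout. In such bulk RNA, fewer cells of a type and less RNA per cell cannot be told apart.

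HAS2 was the most abundant of the 3 synthases at Day 16. Its levels there were 23.2, 14.9, 22.9 and 18.2 TPM, from 253 to 371 recovered reads. At Day 30 RPMI/B27 libraries had 1.93, 2.83, 1.74 and 1.86 TPM, RPMI_glcM/B27 libraries 2.42, 2.55, 1.26 and 1.48 TPM, and HPLM/B27 libraries 1.58, 2.25, 1.37 and 1.62 TPM. These Day 30 levels rested on 30 to 65, 17 to 41 and 28 to 43 reads in a library. Each Day 16 library lay far above each Day 30 library, and the Day 30 groups overlapped one another. The difference on the log2(TPM + 1) scale was -2.74, -2.83 and -2.93 in the 3 media, each with an SE of 0.19 (limma adjusted p = 3.61e-07, 1.31e-07 and 7.25e-08). On that scale the level was 6.69-fold, 7.13-fold and 7.63-fold lower, in the same order. These 3 comparisons share the Day 16 libraries. Between the Day 30 media the HAS2 difference was -0.09 (95% interval -0.50 to 0.31) for RPMI_glcM/B27 against RPMI/B27 and did not pass the test in any of the 3 pairs of media. HAS2-AS1, an antisense RNA over the same locus, had means of 0.922 TPM at Day 16 and 0.0754, 0.0892 and 0.204 TPM at Day 30. The strand setting of the read counting is not given in the sources used here, so reads of overlapping genes on opposite strands may not have been told apart.

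The other synthases were low. HAS3 had means of 1.19 ± 0.433 TPM at Day 16 and 0.696 ± 0.317, 0.632 ± 0.223 and 0.643 ± 0.200 TPM at Day 30 (SD, n = 4). HAS1 lay between 0 and 0.776 TPM, on 0 to 8 reads in a library. Both fell below the filter of 1 TPM, and in a fit over all genes above 0 the HAS3 differences against Day 16 of -0.36, -0.41 and -0.40 did not pass the test (limma adjusted p = 0.213, 0.151 and 0.148). HAS2 accounted for 92.6 ± 3.03% of the TPM of the 3 synthases at Day 16 and for 65.7 ± 10.4%, 61.8 ± 11.5% and 64.0 ± 7.40% at Day 30 (SD, n = 4). The Day 16 shares lay above all 12 Day 30 shares. A two-sided exact permutation test of 4 libraries against 4 gave p = 0.0286 for each medium, the smallest this design allows, and 0.0857 after adjustment over 30 such tests of ratios, which were chosen after the values were seen.

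**Figure D2:**
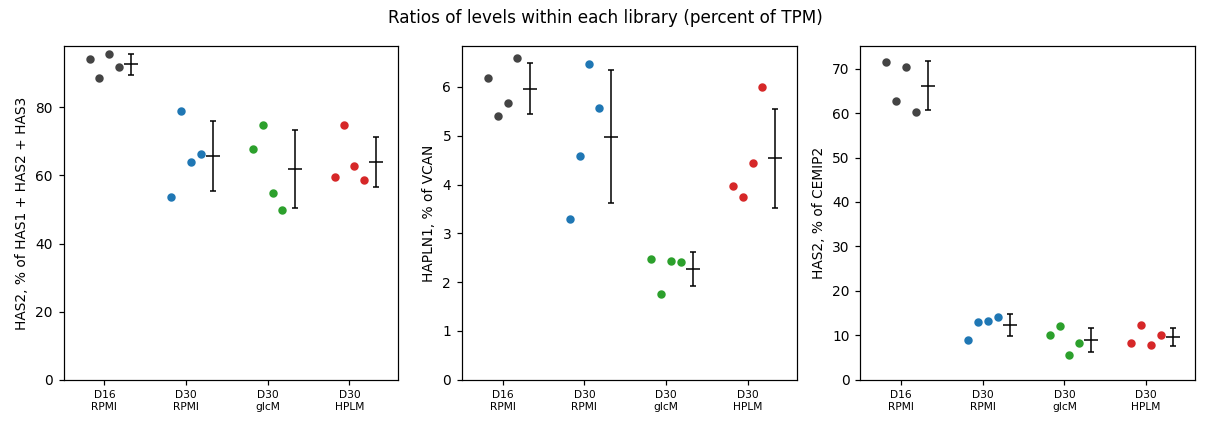
Ratios of TPM within each library, in percent: HAS2 among the 3 synthases, HAPLN1 over VCAN, and HAS2 over CEMIP2; points are libraries by group, and the marks are the mean with SD (n = 4). HAPLN1 over VCAN lies between 1.76 and 2.48% in RPMI_glcM/B27, below every library of the other groups.

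VCAN was the most abundant member in every library. Its product is the large chondroitin sulfate proteoglycan that fills the hyaluronan gel. At Day 16 it stood at 473, 506, 489 and 400 TPM. By Day 30 RPMI/B27 libraries had 242, 232, 134 and 134 TPM, RPMI_glcM/B27 libraries 197, 207, 169 and 140 TPM, and HPLM/B27 libraries 129, 161, 143 and 129 TPM. No Day 30 library reached the Day 16 range, and the low pair in RPMI/B27 was replicates 3 and 4, the libraries with RNR1 above 10000 TPM. Against Day 16 the log2(TPM + 1) differences were -1.38, -1.39 and -1.73, each with an SE of 0.19 (limma adjusted p = 0.000203, 9.45e-05 and 1.45e-05). Within groups, VCAN also followed the rescaling factor of its library (Pearson r = 0.965 over 16 libraries after group means were removed). After rescaling, the differences against Day 16 were -1.04, -1.12 and -1.38.

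Between the Day 30 media, VCAN did not pass the test. The difference was -0.01 (95% interval -0.41 to 0.38) for RPMI_glcM/B27 against RPMI/B27 and -0.35 (limma adjusted p = 0.414) for HPLM/B27 against RPMI/B27. The latter was -0.34 with an adjusted p of 0.0085 in limma after rescaling, and -0.76 with 0.00548 when the pair of libraries above 10000 TPM of RNR1 was left out. VCAN-AS1, on the opposite strand, shares 49969 bases with the span of VCAN and had means of 98.9 TPM at Day 16 and 35.2, 34.9 and 26.3 TPM at Day 30. Its level was 21.1 ± 4.31% of that of VCAN at Day 16 and 19.0 ± 2.71%, 19.5 ± 3.38% and 18.6 ± 3.43% at Day 30 (SD, n = 4), and these ratios overlapped between all groups. VCAN-AS1 was chosen after its values were seen, and reads of VCAN on the wrong gene were not tested for.

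HAPLN1 encodes cartilage link protein, which stabilises the bond between versican and hyaluronan. It lies on chromosome 5 next to VCAN, with 55501 bases between them and the 3′ ends facing each other (GRCh38 chr5:83637805-83720855, minus strand, and chr5:83471618-83582303, plus strand). Levels at Day 16 were 29.2, 27.4, 27.8 and 26.4 TPM. At Day 30 RPMI/B27 libraries had 7.95, 10.6, 8.68 and 7.47 TPM, RPMI_glcM/B27 libraries 4.90, 3.64, 4.13 and 3.38 TPM, and HPLM/B27 libraries 5.10, 6.03, 6.37 and 7.72 TPM. The order of the groups was Day 16, RPMI/B27, HPLM/B27 and RPMI_glcM/B27. RPMI/B27 and HPLM/B27 overlapped in that order, and the other neighbours did not.

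Against Day 16, HAPLN1 was 2.98-fold, 5.76-fold and 3.96-fold lower in the 3 media, with log2(TPM + 1) differences of -1.58, -2.53 and -1.98 (SE 0.14 each, limma adjusted p = 3.66e-06, 1.72e-08 and 1.64e-07). RPMI_glcM/B27 was below RPMI/B27 by a difference of -0.95 (SE 0.14, 95% interval -1.25 to -0.65, limma adjusted p = 0.00196). That call was lost with only these groups in the fit (-0.95, limma adjusted p = 0.0665). Without the 8 libraries above 1000 TPM of RNR1, which include 3 of the 4 in RPMI/B27, the difference was -1.15. HPLM/B27 was 0.54 above RPMI_glcM/B27 without overlap, and this did not pass the test (limma adjusted p = 0.208), but did after rescaling (0.61, adjusted p = 0.0376). HPLM/B27 against RPMI/B27 gave -0.41 (limma adjusted p = 0.153), and was called without the pair of libraries above 10000 TPM of RNR1 (-0.49, limma adjusted p = 0.0405). As a share of VCAN in the same library, HAPLN1 was at 5.97 ± 0.526% at Day 16 and at 4.98 ± 1.37%, 2.27 ± 0.343% and 4.54 ± 1.01% at Day 30 (SD, n = 4). In RPMI/B27 the shares were 3.29, 4.59, 6.47 and 5.58%, the higher pair being the libraries above 10000 TPM of RNR1. Within groups HAPLN1 followed the rescaling factor less closely (Pearson r = 0.410) than VCAN did (0.965), so the share keeps part of that factor. Exact permutation tests of RPMI_glcM/B27 against each other group gave p = 0.0286, adjusted 0.0857. VCAN in RPMI_glcM/B27 lay within the range of RPMI/B27, while HAPLN1 lay below it.

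HAPLN3, a link protein of the same family, ranged from 1.20 to 5.82 TPM over all libraries on 14 to 71 reads. Its levels in Day 30 RPMI/B27 were 5.82, 3.89, 1.80 and 1.32 TPM, a wider spread than in the other groups. No difference passed the test. The difference for RPMI/B27 against Day 16 was 0.13 (SE 0.30, limma adjusted p = 0.779) and turned to -0.10 without Day 16 replicate 1 and to -0.15 without Day 30 RPMI/B27 replicate 1. When the pair of libraries above 10000 TPM of RNR1 was left out, HAPLN3 was called lower in RPMI_glcM/B27 than in RPMI/B27 (-1.18, limma adjusted p = 0.0203) and lower in HPLM/B27 than in RPMI/B27 (-1.14, limma adjusted p = 0.0137). HAPLN2, HAPLN4 and the other proteoglycans of the versican family (5 genes listed, 0 above the filter) were not tested. HAPLN2, the highest of them, had a mean of 0.681 TPM.

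CD44, the main cell surface receptor for hyaluronan, was low at Day 16, at 1.26, 1.12, 1.57 and 0.986 TPM on 32 to 42 reads. By Day 30 RPMI/B27 libraries had 3.18, 2.79, 3.71 and 2.19 TPM on 86 to 196 reads, RPMI_glcM/B27 libraries 1.50, 1.94, 1.33 and 1.15 TPM, and HPLM/B27 libraries 1.88, 1.75, 2.48 and 2.36 TPM. RPMI/B27 and HPLM/B27 lay above every Day 16 library, whereas RPMI_glcM/B27 overlapped Day 16. The difference for RPMI/B27 against Day 16 was 0.82 on the log2(TPM + 1) scale (SE 0.17, limma adjusted p = 0.00428), a fold of 1.77, against a median of all genes of -0.28. It was 0.71 without the 8 libraries above 1000 TPM of RNR1, which include 3 of the 4 in RPMI/B27. It did not pass in RPMI_glcM/B27 (0.15, limma adjusted p = 0.585), and it missed the threshold narrowly in HPLM/B27 (0.48, limma adjusted p = 0.0502). After rescaling, the HPLM/B27 difference was 0.68 with an adjusted p of 0.0058, and it was also called without Day 30 RPMI/B27 replicate 3 or replicate 4 (limma adjusted p = 0.0455 and 0.0332).

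CD44 in RPMI_glcM/B27 lay below CD44 in RPMI/B27 without overlap, by a difference of -0.67 (95% interval -1.04 to -0.31, limma adjusted p = 0.0513). The call was made after rescaling (-0.73, adjusted p = 0.0094) and without Day 30 RPMI/B27 replicate 4 (limma adjusted p = 0.0285). Counts per gene do not separate the variant exons of CD44. CD44 reaches the cytoskeleton through ezrin, radixin and moesin, and of 10 tested genes for such linkers and co-receptors, 4, 5 and 6 were called lower and 0 higher against Day 16 in the 3 media (1, 5 and 5 lower and 1 higher in each after rescaling). Of all genes, 17.8, 17.8 and 22.4% were called lower in these comparisons (8.76, 13.6 and 11.9% after rescaling). Moesin (MSN) had means of 62.5 TPM at Day 16 and 43.4, 25.9 and 33.2 TPM at Day 30, and was lower in RPMI_glcM/B27 than in RPMI/B27 (-0.72, limma adjusted p = 0.0173). MMP14, a membrane protease that sheds CD44, was lower in the same comparison (-1.10, limma adjusted p = 0.0135). Ezrin (EZR) did not pass the test in any comparison, with differences against Day 16 of 0.01, 0.22 and 0.03.

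**Figure D3:**
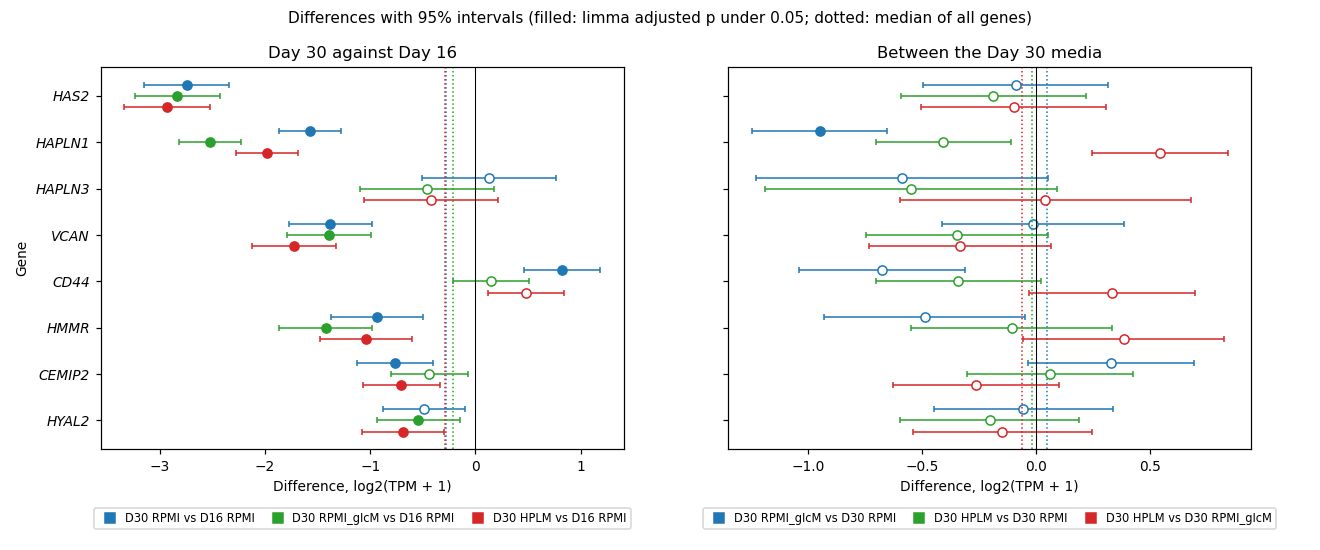
Differences on the log2(TPM + 1) scale with 95% intervals for the 8 genes tested, for Day 30 against Day 16 (left) and between the Day 30 media (right); filled circles passed limma's adjusted p of 0.05, and dotted lines are the median of all genes in that comparison. HAS2 and HAPLN1 lie furthest left of the dotted lines against Day 16. VCAN comes next, except in RPMI_glcM/B27, where HMMR (-1.42) lies left of VCAN (-1.39). Between media, HAPLN1 in RPMI_glcM/B27 against RPMI/B27 (-0.95) is the filled point.

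HMMR encodes RHAMM, which binds hyaluronan outside the cell and also sits on spindle microtubules during mitosis. Its levels were 25.4, 31.2, 24.7 and 23.6 TPM at Day 16. At Day 30 RPMI/B27 libraries had 16.7, 13.9, 12.3 and 10.5 TPM, RPMI_glcM/B27 libraries 11.1, 8.71, 8.81 and 8.0 TPM, and HPLM/B27 libraries 11.1, 7.26, 16.2 and 16.4 TPM. All Day 30 libraries lay below Day 16, and HPLM/B27 had the widest spread, with replicate 2 the lowest of all 16. The differences against Day 16 were -0.93, -1.42 and -1.04, each with an SE of 0.21 (limma adjusted p = 0.00601, 0.000185 and 0.00211). Without the 2 libraries above 10000 TPM of RNR1 the first of these did not pass (-0.74, limma adjusted p = 0.0809). It was -0.91 without the 8 above 1000 TPM, which include 3 of the 4 in RPMI/B27. No pair of Day 30 media passed, the largest difference being -0.49 for RPMI_glcM/B27 against RPMI/B27 (limma adjusted p = 0.272).

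HMMR followed the genes of mitosis from library to library. The 3 genes most like it, among 9753 whose mean reached 5 TPM, were KNL1, a kinetochore scaffold (Pearson r = 0.990 on log2(TPM + 1) over 16 libraries), PRC1, which bundles midzone microtubules (r = 0.980), and KIF14, a cytokinesis kinesin (r = 0.975). After group means were removed the values were 0.963, 0.960 and 0.951. The libraries share their scaling, so these are descriptions. A list of 20 mitotic spindle genes summed to 817, 980, 863 and 743 TPM at Day 16. At Day 30 the sums were 509, 500, 374 and 385 TPM for RPMI/B27, 412, 379, 322 and 330 TPM for RPMI_glcM/B27, and 368, 216, 529 and 544 TPM for HPLM/B27. HPLM/B27 replicate 2 was again the lowest library. Against Day 16, 17.8, 17.8 and 22.4% of all genes were called lower in the 3 media (8.76, 13.6 and 11.9% after rescaling). Of the 20 mitotic spindle genes, 17, 20 and 20 were called lower (10, 17 and 14 after rescaling), with medians of -0.92, -1.23 and -1.12. TOP2A, the most abundant of them and the enzyme that untangles replicated chromosomes, had means of 103 TPM at Day 16 and 58.7, 50.8 and 57.2 TPM at Day 30.

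**Figure D4:**
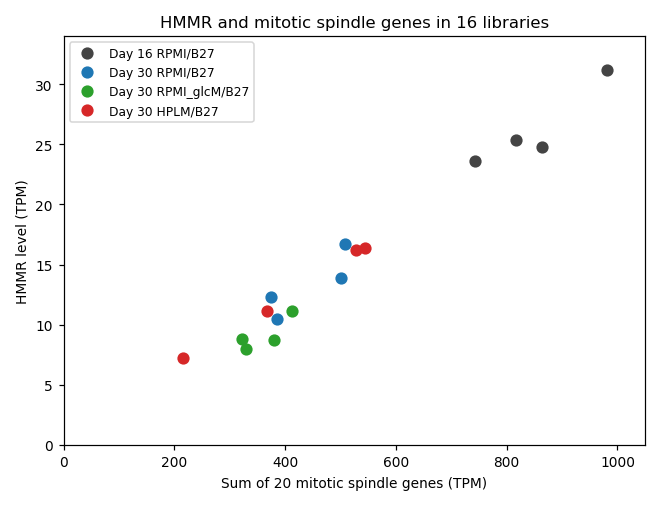
Level of HMMR (TPM) against the summed level of 20 mitotic spindle genes (TPM) in each of the 16 libraries, coloured by group. The 4 Day 16 libraries lie at the upper right, with HMMR at or above 23.6 TPM, and HPLM/B27 replicate 2 lies lowest at 7.26 TPM.

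Promoters of HMMR and of the genes most like it were set side by side to see whether they hold the same short elements. RefSeq promoters (GRCh38.p14) matched 9 of the 10 members, all but HAS2, and 300 bases around each start, from 250 before to 50 after, were searched on both strands for TTTGAA, the letters of the cell cycle homology region found at many mitotic genes, and for CCAAT, the site of the factor NF-Y. KNL1 is named only. Capitals mark these letters on either strand, in the 100 bases before and 10 after the start of HMMR (chr5:163460532-163460641, plus strand), PRC1 (chr15:90994526-90994635, minus strand) and KIF14 (chr1:200620742-200620851, minus strand).
HMMR: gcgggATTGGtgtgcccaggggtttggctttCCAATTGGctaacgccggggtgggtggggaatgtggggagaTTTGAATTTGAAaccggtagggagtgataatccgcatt
PRC1: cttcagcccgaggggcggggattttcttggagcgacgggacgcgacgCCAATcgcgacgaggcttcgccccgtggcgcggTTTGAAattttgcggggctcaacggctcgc
KIF14: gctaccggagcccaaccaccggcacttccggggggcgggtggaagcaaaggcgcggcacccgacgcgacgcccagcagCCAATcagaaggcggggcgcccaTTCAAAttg

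HMMR held 2 adjacent copies of TTTGAA, at 28 and 22 bases before the start, and 5 matches to CCAAT, of which the pair nearest the start overlap head to head. PRC1 had TTTGAA at 20 and CCAAT at 53 bases before its start. KIF14 had CCAAT at 22 bases before the start and TTTGAA on the opposite strand from base 2 after it. Of all 35116 promoters of this length, 15.2% held TTTGAA and 34.6% held CCAAT, and of the 17 promoters on hand from the mitotic list, 13 held TTTGAA and 13 held CCAAT. HMMR was the only member with CCAAT in this window. TTTGAA stood in 3 of the 9 members' promoters, those of HMMR, VCAN and HAS1, where HAS1 had it on the opposite strand at 30 bases before the start. A match is a description of letters and not a bound site.

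The neighbours VCAN and HAPLN1 are shown from 200 bases before to 10 after the start, as the pair whose ratio was followed across media. Capitals mark TTTGAA and GGGCGG, the GC box, on either strand, in VCAN (chr5:83471544-83471753, plus strand) and HAPLN1 (chr5:83720846-83721055, minus strand).
VCAN: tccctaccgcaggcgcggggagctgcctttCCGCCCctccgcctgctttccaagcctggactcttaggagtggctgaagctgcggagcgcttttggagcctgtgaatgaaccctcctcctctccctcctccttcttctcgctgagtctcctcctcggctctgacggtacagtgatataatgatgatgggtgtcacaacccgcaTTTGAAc
HAPLN1: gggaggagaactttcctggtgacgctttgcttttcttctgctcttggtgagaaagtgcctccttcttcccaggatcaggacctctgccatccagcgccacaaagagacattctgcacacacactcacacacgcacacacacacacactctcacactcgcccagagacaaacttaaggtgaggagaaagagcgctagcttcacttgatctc

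VCAN held TTTGAA from base 4 after the start and GGGCGG on the opposite strand, while HAPLN1 held neither, nor CCAAT or TATAAA, in its 300 bases. GGGCGG stood in 45.0% of all promoters and in 6 of the 9 members' promoters, and TATAAA in 11.5% and in 0. GENCODE v44 starts the VCAN and HMMR genes upstream of these RefSeq starts, so part of the VCAN window and the whole HMMR window lie inside the gene span. The motifs were chosen after the levels were seen.

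CEMIP2 and HYAL2 act at the cell surface in hyaluronan turnover. HYAL2 is an anchored hyaluronidase that cuts long chains, and CEMIP2 (TMEM2) is a transmembrane protein tied to hyaluronan breakdown. CEMIP2 stood at 32.5, 23.7, 32.5 and 30.2 TPM at Day 16. By Day 30 RPMI/B27 libraries had 21.8, 21.8, 13.1 and 13.1 TPM, RPMI_glcM/B27 libraries 24.3, 21.2, 23.0 and 18.0 TPM, and HPLM/B27 libraries 19.1, 18.3, 17.6 and 15.9 TPM. RPMI/B27 and HPLM/B27 lay below Day 16 without overlap, and RPMI_glcM/B27 overlapped it in 1 library. The differences were -0.77, -0.44 and -0.71, each with an SE of 0.17 (limma adjusted p = 0.00638, 0.0805 and 0.00758), and the one for RPMI_glcM/B27 did not pass. Replicates 3 and 4 of RPMI/B27, the libraries above 10000 TPM of RNR1, held its lowest values, and without them the RPMI/B27 difference was -0.42 (limma adjusted p = 0.0781). The call was also lost with only these groups in the fit (-0.77, limma adjusted p = 0.06) and with RNR1 as covariate (-0.60, limma adjusted p = 0.0601). Without the 8 libraries above 1000 TPM of RNR1, which include 3 of the 4 in RPMI/B27, the RPMI/B27 difference was -0.41. Without Day 16 replicate 2, CEMIP2 was called lower in RPMI_glcM/B27 too (-0.54, limma adjusted p = 0.0497). So it was with only RPMI_glcM/B27 and Day 16 in the fit (-0.44, limma adjusted p = 0.0338). The same held without the RPMI/B27 libraries above 10000 TPM of RNR1 (-0.44, limma adjusted p = 0.00913). For RPMI_glcM/B27, CEMIP2 was called in 3 of 10 alternatives and for 1 of 16 libraries left out in turn.

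HYAL2 stood at 18.8, 17.9, 18.4 and 17.2 TPM at Day 16 and at 19.0, 14.9, 10.8 and 8.13 TPM in RPMI/B27. In RPMI_glcM/B27 it was at 12.0, 12.0, 14.1 and 10.5 TPM, and in HPLM/B27 at 11.5, 11.8, 9.60 and 10.4 TPM. The latter groups lay below Day 16 without overlap, and RPMI/B27 overlapped it. The difference was -0.69 (SE 0.18, limma adjusted p = 0.0128) in HPLM/B27, and -0.54 (limma adjusted p = 0.0467) in RPMI_glcM/B27, a call that was lost without any 1 of the 12 libraries outside RPMI/B27 (limma adjusted p from 0.0521 to 0.133) and after rescaling (-0.28, adjusted p = 0.0683). RPMI/B27 gave -0.49 (limma adjusted p = 0.0719), and passed without its replicate 1 (-0.67, limma adjusted p = 0.00859) or replicate 2 (-0.56, limma adjusted p = 0.0427). Between media, HYAL2 was called lower than in RPMI/B27 when the pair of libraries above 10000 TPM of RNR1 was left out, by -0.45 in RPMI_glcM/B27 (limma adjusted p = 0.0407) and by -0.60 in HPLM/B27 (limma adjusted p = 0.00808). Within groups HYAL2 and CEMIP2 followed the rescaling factor of the library (r = 0.818 and 0.708 over 16 libraries). TUSC2, on the same strand, shares 2756 bases with the span of HYAL2 and passed no test against Day 16 (limma adjusted p = 0.187, 0.913 and 0.471).

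The synthase was also set against a gene tied to breakdown within each library. The HAS2 level was 66.2 ± 5.56% of that of CEMIP2 at Day 16 and 12.3 ± 2.37%, 8.93 ± 2.77% and 9.61 ± 2.02% at Day 30 (SD, n = 4). No Day 30 library reached the Day 16 range (exact permutation p = 0.0286 for each medium, adjusted 0.0857). HYAL2 as a share of CEMIP2 was 61.7 ± 9.20% at Day 16 and 74.9 ± 11.7%, 56.4 ± 5.24% and 61.1 ± 4.96% at Day 30 (SD, n = 4), each overlapping Day 16. RPMI_glcM/B27 lay below RPMI/B27 without overlap in this share (exact permutation p = 0.0286, adjusted 0.0857).

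Counted over the 8 members tested, 1 was called higher and 5 lower in RPMI/B27 against Day 16, where 19.9% of all genes were called, 2.08% higher and 17.8% lower. In RPMI_glcM/B27, 0 were called higher and 5 lower, with 21.1% of all genes called and 17.8% lower. In HPLM/B27, 0 were called higher and 6 lower, with 25.4% of all genes called and 22.4% lower. Their median differences were -0.85, -0.97 and -0.87 in these comparisons, against -0.28, -0.22 and -0.29 over all genes. Without overlap between groups, 1 of the 8 members tested lay higher and 5 lower in RPMI/B27 (1.72% and 16.2% of all genes tested), and 5 lay lower in RPMI_glcM/B27 (25.9%). In HPLM/B27 the counts were 1 higher and 6 lower (3.77% and 32.1%). HAS1 and HAS3, below the filter, overlapped Day 16 in each medium.

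Between media, 1 member was called lower in RPMI_glcM/B27 than in RPMI/B27, with 2.2% of all genes called and 0.837% lower, and 2 members lay lower without overlap (2.6% of all genes). limma called 0 members in HPLM/B27 against RPMI/B27, with 2.41% of all genes called, while 1 member (HAPLN1) had an unadjusted p under 0.05 and limma-voom on recovered reads called 1. It also called 0 in HPLM/B27 against RPMI_glcM/B27, with 0.0682% of all genes called, while 1 member (HAPLN1) had an unadjusted p under 0.05 and lay higher without overlap (2.41% of all genes), and limma-voom called 0. After rescaling, 1 member was called higher and 5 lower in RPMI/B27 against Day 16 (8.76% of all genes in each direction), and 4 lower in RPMI_glcM/B27 (13.6%). For HPLM/B27 the rescaled counts were 1 higher and 6 lower (13.4% and 11.9%). The rescaled calls between media were 2 lower in RPMI_glcM/B27 against RPMI/B27 (5.64% of all genes), 1 lower in HPLM/B27 against RPMI/B27 (5.55%) and 1 higher in HPLM/B27 against RPMI_glcM/B27 (0.992%).

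RNA of matrix proteins that assemble with versican was examined next. Of 9 such genes listed, 3 were below the filter, and the 6 tested, FBLN1, FBLN2, FBN1, FBN2, FN1 and TNC, were called lower against Day 16 in each medium, also after rescaling, with medians of -1.20, -1.62 and -1.45. The shares of all genes called lower were 17.8, 17.8 and 22.4% (8.76, 13.6 and 11.9% after rescaling). Fibronectin (FN1) had means of 399 TPM at Day 16 and 110, 70.4 and 104 TPM at Day 30. Fibrillin 2 (FBN2), a microfibril protein of developing tissue, went from 296 TPM to 128, 120 and 93.9 TPM. Tenascin C (TNC), which binds versican, had means of 9.52 TPM at Day 16 and 3.80, 1.23 and 4.15 TPM at Day 30. It was lower in RPMI_glcM/B27 than in RPMI/B27 (-1.09, limma adjusted p = 0.0113) and higher in HPLM/B27 than in RPMI_glcM/B27 (1.23, limma adjusted p = 0.0386). Among 3 tested secreted proteins that bind hyaluronan, 2, 3 and 3 were called lower against Day 16 (1, 3 and 3 after rescaling). ITIH2, a heavy chain that is transferred onto hyaluronan, had means of 22.1 TPM at Day 16 and 11.6, 5.07 and 5.03 TPM at Day 30, and was lower than in RPMI/B27 in both RPMI_glcM/B27 (-1.04, limma adjusted p = 0.0203) and HPLM/B27 (-1.07, limma adjusted p = 0.0153). HABP2, a plasma protease that binds hyaluronan, was lower in RPMI_glcM/B27 than in RPMI/B27 (-0.99, limma adjusted p = 0.0121).

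Among 8 tested genes for other steps of synthesis and for precursor sugars, 0, 1 and 1 were called higher and 3, 5 and 6 lower against Day 16 in the 3 media (2, 4 and 4 lower after rescaling). Over all genes, 2.08, 3.34 and 3% were called higher and 17.8, 17.8 and 22.4% lower. After rescaling these shares were 8.76, 14 and 13.4% higher and 8.76, 13.6 and 11.9% lower. UGP2, which makes UDP-glucose, had means of 331 TPM at Day 16 and 254, 206 and 227 TPM at Day 30. UAP1L1, a relative of the enzyme that makes UDP-N-acetylglucosamine, moved the other way, with means of 1.31 TPM at Day 16 and 1.30, 6.12 and 7.07 TPM at Day 30, and was higher than in RPMI/B27 both for RPMI_glcM/B27 (1.64, limma adjusted p = 8.4e-05) and for HPLM/B27 (1.83, limma adjusted p = 1.36e-05). In the assembly of chondroitin sulfate, the chain that versican carries, 6, 6 and 5 of 15 tested genes were called lower and 0 higher (4, 4 and 2 lower and 0, 1 and 0 higher after rescaling). For HPLM/B27 the rescaled count of 2 lower was near the share over all genes of 11.9%. Of 6 tested versican proteases and their inhibitors, 1, 2 and 0 were called higher and 3, 2 and 2 lower (2, 2 and 1 higher and 2, 1 and 2 lower after rescaling). ADAMTS9, a versican-cleaving protease, had means of 66.9 TPM at Day 16 and 36.6, 30.4 and 30.0 TPM at Day 30, and its inhibitor TIMP3 had 67.8 and 76.1, 71.2 and 66.7 TPM. Of 6 splicing factors known to act on CD44, 3, 2 and 4 were called lower and 0 higher (2, 2 and 2 lower after rescaling).

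For the other members, the genes most like them over 16 libraries were FREM2 for HAS2 (Pearson r = 0.985), CCDC80 for HAPLN1 (r = 0.970), LHFPL2 for VCAN (r = 0.987), OST4 for HAPLN3 (r = 0.896), PDLIM3 for CD44 (r = 0.894), CTSV for CEMIP2 (r = 0.965) and HNRNPR for HYAL2 (r = 0.954). FREM2, an extracellular matrix protein of basement membranes, and CCDC80, a secreted matrix protein, held within-group values of 0.558 and 0.267, so most of their likeness was between groups. LHFPL2 and OST4 held 0.936 and 0.947.

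Markers of other cell types moved with some of these genes. Against Day 16, 2.08, 3.34 and 3% of all genes were called higher and 17.8, 17.8 and 22.4% lower in the 3 media. After rescaling the shares were 8.76, 14 and 13.4% higher and 8.76, 13.6 and 11.9% lower. Fibroblast-like markers, 12 genes, summed to between 242 and 441 TPM at Day 16, 151 to 301 TPM in RPMI/B27, 119 to 163 TPM in RPMI_glcM/B27 and 122 to 186 TPM in HPLM/B27. Of 7 tested, 4, 6 and 5 were called lower and 0 higher against Day 16 (3, 6 and 5 lower and 1, 1 and 0 higher after rescaling). MFAP5, among those lower in each medium, had means of 2.26 TPM at Day 16 and 0.336, 0.861 and 0.573 TPM at Day 30. Its overall mean of 1.01 TPM passed the filter of 1 TPM only through Day 16, so its calls are not independent of the filter. COL1A2, a fibrillar collagen chain, was lower than in RPMI/B27 in RPMI_glcM/B27 (-1.24, limma adjusted p = 0.00393) and HPLM/B27 (-0.81, limma adjusted p = 0.0421). It was the only 1 of the 7 tested that was called in either comparison (4 lower in each after rescaling). POSTN, another of these markers, had means of 32.1 TPM at Day 16 and 45.5, 44.7 and 27.8 TPM at Day 30. Smooth muscle-like markers, 7 genes, summed to between 445 and 914 TPM at Day 16 and to between 279 and 1054, 286 and 379, and 322 and 543 TPM at Day 30, with MYH11 at 0 in every library and 2, 4 and 4 of 6 tested called lower (0, 2 and 1 after rescaling). RGS5, a pericyte and smooth muscle gene, was lower in RPMI_glcM/B27 than in RPMI/B27 (-0.91, limma adjusted p = 0.0057). Endothelial-like markers, 10 genes, summed to between 42.8 and 54.9 TPM at Day 16 and between 14.2 and 32.9 TPM at Day 30, nearly all of it KDR. Epicardial-like markers, 8 genes, summed to between 85.0 and 161 TPM, most of it KRT19 (means of 117 TPM at Day 16 and 84.7, 111 and 84.4 TPM at Day 30). Of 2 tested, 1, 0 and 2 were called lower and 1, 0 and 0 higher against Day 16 (0, 0 and 1 lower and 1, 1 and 0 higher after rescaling). TBX18, an epicardial transcription factor, was the higher one in RPMI/B27 (0.60, limma adjusted p = 0.0468), and was lower in HPLM/B27 than in RPMI/B27 (-1.30, limma adjusted p = 0.00247). Endocardial-like markers, 6 genes, summed to between 67.6 and 76.8 TPM at Day 16 and between 34.7 and 60.6 TPM at Day 30. Most of it was CDH11 (means of 49.4 TPM at Day 16 and 33.3, 30.2 and 38.1 TPM at Day 30). Of 5 tested, 4, 4 and 3 were called lower and 0, 1 and 1 higher (1, 3 and 2 lower and 0, 1 and 1 higher after rescaling). The higher one was NPR3, a natriuretic peptide receptor, with means of 0.341 TPM at Day 16 and 0.213, 1.38 and 2.69 TPM at Day 30. It was also higher in HPLM/B27 than in RPMI/B27 (1.57, limma adjusted p = 0.00204). Its overall mean of 1.16 TPM passed the filter of 1 TPM through the groups where it was high, so these calls are not independent of the filter. The part of these cell types in the results was not tested.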

How the data were processed

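RNA of 16 libraries was measured in 4 groups of 4 wells. The authors prepared stranded total RNA (Takara SMARTer kit) for a NovaSeq, and mapped reads to hg38 with STAR 2.5.3a and counted them with featureCounts 2.0.3, per the submitters' processing notes and the study's methods. The authors deposited TPM for 43388 genes, scaled to 1000000 per library, and the annotation, gene lengths and strand setting are not given in the sources used here. A gene's share of TPM depends on all others, so a few abundant RNAs move every value.

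The 16122 genes whose mean reached 1 TPM were tested by limma 3.58.1 (R 4.3.3, trend, all 4 groups) on log2(TPM + 1), 6 comparisons, Benjamini-Hochberg, threshold 0.05. Such a fold understates the change of low genes. Whole reads were recovered from ratios of TPM for 31038 of 31047 genes, and by a length search for the rest, and 1 read on 1000 bases is 0.139 to 0.314 TPM. Replicates of a group differed beyond counting noise (chi-square per degree of freedom of 2.21 or more in 24 pairs). Intervals and read numbers cover these wells only.

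Members, lists and tests were chosen with earlier results of these data known. Named are all 10 members, per list the 3 genes of highest mean TPM at most and those called between Day 30 media, and per member the 3 most correlated genes at most (1 for most members here). Outside this rule, FBLN1, FBN1, MFAP5, MYH11, VCAN-AS1, HAS2-AS1 and TUSC2 were named after their values were seen. Alternatives were a pseudocount of 0.1, other filters, median-of-ratios rescaling, only 2 groups, a replicate block, RNR1 as covariate, limma-voom on recovered reads, each library left out, and, chosen after seeing the data, leaving out libraries above 10000 or 1000 TPM of RNR1. The list of other hyaluronidases and uptake genes is not reported here. The steps were tested on simulated data. Positions are from GENCODE v44 (GRCh38) and promoters from RefSeq (GRCh38.p14). Python 3.11.15, numpy 2.4.6, pandas 2.3.3 and matplotlib 3.10.9 were used.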

Additional observations from a re-analysis of the deposited data

Results flagged for a closer look

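The level of HAPLN1 as a share of VCAN in Day 30 RPMI_glcM/B27 replicate 2 was 1.76%, apart from the other 3 libraries of the group at 2.41 to 2.48%. Its gap to the nearest library, divided by the range of the group, was 0.892, above Dixon's 95% limit for 4 samples. It was the 1 such value among 52 groups examined, and chance alone gives about 1 in 20. The lowest share in Day 30 RPMI/B27 was 3.29%, so the groups stayed apart with or without this library.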

How the results depend on the processing

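No difference of a member turned direction among those called. The count of members called in RPMI_glcM/B27 against RPMI/B27 was 1, and became 2 after median-of-ratios rescaling, with RNR1 as covariate and by limma-voom, 0 with only the 2 groups in the fit, 4 without libraries above 10000 TPM of RNR1 and 0 without those above 1000 TPM. In HPLM/B27 against RPMI/B27 it was 0, and became 1 by rescaling and by the RNR1 covariate (VCAN in both) and by limma-voom (HAPLN1), and 4 without libraries above 10000 TPM. In HPLM/B27 against RPMI_glcM/B27 it was 0, and 1 after rescaling. In RPMI/B27 against Day 16 it was 6, and 4 and 3 without libraries above 10000 and 1000 TPM of RNR1, the latter leaving 8 libraries, of which 1 in Day 30 RPMI/B27 is assumed to vary like the other groups. Leaving out each library in turn gave 1 to 2 members in RPMI_glcM/B27 against RPMI/B27 (2 without Day 30 RPMI/B27 replicate 4), 0 in the other pairs of media, 6 to 7 in RPMI/B27, 4 to 5 in RPMI_glcM/B27 and 6 to 7 in HPLM/B27 against Day 16. With the replicate number as a block, 2 members were called in RPMI_glcM/B27 against RPMI/B27, and 7, 6 and 7 against Day 16 in the 3 media. The block newly called HYAL2 in RPMI/B27 (adjusted p = 0.0402), CEMIP2 in RPMI_glcM/B27 (0.0488) and CD44 in HPLM/B27 (0.0375) against Day 16 and CD44 between RPMI_glcM/B27 and RPMI/B27 (0.0356), all by limma. Same-numbered libraries correlated at -0.07 to 0.21, over 0.1 in 3 of 4 pairs for RPMI/B27 against Day 16 and in at most 1 of 4 in each other comparison, and 0 to 5 of 8 libraries correlated best with their own number, so the numbers were not taken to pair the wells. Over all genes, 354 were called in RPMI_glcM/B27 against RPMI/B27, 1952 after rescaling, 45 with only 2 groups, 721 with the block, 727 with the RNR1 covariate, 1220 by limma-voom, and 1669 and 3 without libraries above 10000 and 1000 TPM of RNR1. In HPLM/B27 against RPMI/B27 the 388 became 2092, 81, 732, 1104, 1564, 3367 and 50 in the same order, and in HPLM/B27 against RPMI_glcM/B27 the 11 became 257, 33, 48, 91, 138, 121 and 3. In RPMI/B27 against Day 16 the 3203 became 998 with only 2 groups, 1388 with the RNR1 covariate, and 1558 and 301 without those libraries. Without libraries above 10000 TPM the 3400 in RPMI_glcM/B27 and 4088 in HPLM/B27 against Day 16 became 5498 and 6581. Causes were not tested. Depth limits HAS1, HAS3, HAPLN3, CD44 and, at Day 30, HAS2 most.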
